A study of Homo sapiens with 2 samples.

Results

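The potassium channel genes were taken as all protein-coding genes of chromosomes 1 to 22 whose GENCODE name is KCN followed by subfamily letters and a number. This gave 92 of 19222 protein-coding genes, in 20 subfamilies. Accessible chromatin had been mapped in 2 libraries of G401 cells by ATAC-seq, which uses a transposase, Tn5, to place sequencing adapters in open DNA. G401 is an established line, derived from a kidney rhabdoid tumor, that lacks the SMARCB1 subunit of the SWI/SNF chromatin remodeler. The first library came from cells given the solvent DMSO, and the second from cells given 3 µM MAK683 for 3 days, an inhibitor that binds EED, a subunit of the Polycomb complex PRC2, which methylates histone H3 at lysine 27. Each group was 1 library of 1 line, so no difference below has a replicate check, no p-value was computed, and a difference between libraries cannot be told apart from a difference between cultures or preparations.

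Potassium channels let potassium ions flow along their gradient and so set the resting potential and end the action potential. Voltage-gated pores open on depolarization, inward rectifiers pass current best near rest, tandem-pore channels carry background leak, and calcium- or sodium-activated pores respond to ions inside the cell. Auxiliary subunits form no pore but change how the pores open, close or reach the membrane. Many of these genes are best known from neurons, heart and kidney epithelium, and the promoters of such lineage genes are common sites of PRC2 marking in cells that do not use them.

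The height of a promoter was the tallest peak of a library that came within 3 kb of the gene's transcription start site (TSS), in tags per 1000000 tags of that library that passed the duplicate filter (RPM). The DMSO library held 16598348 such tags and the MAK683 library 18265284, so 1 tag was worth 0.0602 and 0.0547 RPM. Where only 1 library had a peak, the other was given a floor value, 0.361 RPM, that of the lowest peak of 6 tags in DMSO. Ratios below are MAK683 over DMSO on the log2 scale, and the 95% intervals of heights, ratios and sums cover counting error only, while those of medians reflect the spread between genes. The median log2 ratio of all 15745 coding genes that had a promoter peak was -0.42, so a gene with no difference in RPM stood above most genes. As a check of the line, SMARCB1 (chr22:24129118-24180196 in GRCh37) had 0 peaks in the gene and 3 kb on either side in both libraries. In a bulk library, fewer cells with an open promoter and less opening per cell cannot be told apart.

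Promoters of 5 genes show what the comparison turns on, as the 200 bases just upstream of the TSS in the GRCh37 reference, none of which overlap an annotated exon. In the first set, no DMSO peak covered any of these bases and a MAK683 peak covered all 200. These are KCNH5, a voltage-gated channel of the EAG group, KCNJ10, the inward rectifier of glia and kidney tubule, and KCNK2, a leak channel opened by stretch. They lie in KCNH5 on the minus strand at chr14:63512177-63512376, KCNJ10 on the minus strand at chr1:160039951-160040150 and KCNK2 on the plus strand at chr1:215255880-215256079. Each is printed 5′ to 3′ along the gene, with capitals for GGGCGG, the GC box letters, on either strand.
KCNH5: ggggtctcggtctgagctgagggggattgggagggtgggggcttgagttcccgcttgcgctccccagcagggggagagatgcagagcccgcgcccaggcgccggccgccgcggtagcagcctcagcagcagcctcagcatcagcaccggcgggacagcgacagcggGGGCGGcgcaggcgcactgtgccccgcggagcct
KCNJ10: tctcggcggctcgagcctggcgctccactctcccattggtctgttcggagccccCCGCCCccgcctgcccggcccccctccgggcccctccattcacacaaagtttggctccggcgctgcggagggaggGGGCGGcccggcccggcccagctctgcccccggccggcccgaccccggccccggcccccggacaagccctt
KCNK2: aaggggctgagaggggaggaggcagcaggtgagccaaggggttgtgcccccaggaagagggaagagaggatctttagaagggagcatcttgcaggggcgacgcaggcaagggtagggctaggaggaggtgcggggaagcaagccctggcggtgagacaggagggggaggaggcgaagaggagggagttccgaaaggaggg

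In the second set, peaks of both libraries covered all 200 bases and the MAK683 peak was the lower one. These are KCNJ16, an inward rectifier subunit of the kidney, and KCNN3, a small-conductance calcium-activated channel. They lie in KCNJ16 on the plus strand at chr17:68071166-68071365 and KCNN3 on the minus strand at chr1:154842758-154842957.
KCNJ16: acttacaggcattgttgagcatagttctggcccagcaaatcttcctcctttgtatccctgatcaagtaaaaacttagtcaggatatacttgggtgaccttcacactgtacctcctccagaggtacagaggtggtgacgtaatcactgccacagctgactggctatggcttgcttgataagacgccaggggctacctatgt
KCNN3: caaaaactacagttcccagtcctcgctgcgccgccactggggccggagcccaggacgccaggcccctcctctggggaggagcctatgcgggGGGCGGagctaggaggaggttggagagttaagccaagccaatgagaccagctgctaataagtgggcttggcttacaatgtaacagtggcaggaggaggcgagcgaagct

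The stretches of the first set had a GC content of 74.0% at KCNH5, 78.0% at KCNJ10 and 64.0% at KCNK2. Those of the second set had 48.0% at KCNJ16 and 61.5% at KCNN3. Among other genes named below, the 200 bases had 85.0% GC at KCNJ4, 81.5% at KCNG3 and 80.5% at KCNH2, all lower in MAK683. They had 43.5% at KCNMB2 and 49.5% at KCNE4, both with a MAK683 peak alone. GC content thus did not by itself separate higher from lower promoters. The GC box letters occurred in both sets, once at KCNH5 and KCNN3, more than once at KCNJ10, and not at KCNK2 or KCNJ16, so their presence did not separate the sets.

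A promoter peak was called at 61 of the 92 potassium channel genes in DMSO (66.3%), against 74.0% of all protein-coding genes. In MAK683 the count was 77 (83.7%), against 80.1%. The genes thus had peaks less often than coding genes at large in DMSO and slightly more often in MAK683. Both libraries had a peak at 59 genes, against a background of 72.1% of all genes. A peak in MAK683 alone was found at 18 genes (19.6%), where the background was 7.92%. A peak in DMSO alone was found at 2 genes, KCNJ13 and KCNK4 (2.17%, background 1.86%). No promoter peak in either library was found at 13 genes: the auxiliary subunits KCNAB1, KCNE3, KCNIP3 and KCNMB3, the voltage-gated KCNA5, KCNA10, KCNC2, KCNS1 and KCNV2, and KCNJ15, KCNK16, KCNN4 and KCNU1. Only 1 TSS per gene was used, so a peak at another start counts as gene body or is missed. With all annotated TSSs, 82 genes had a peak in either library. In DMSO, gene-body peaks reached 2.35 RPM at KCNAB1, and 2.11 and 1.99 RPM at KCNIP1 and KCNJ10, which had no DMSO promoter peak.

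**Figure D1:**
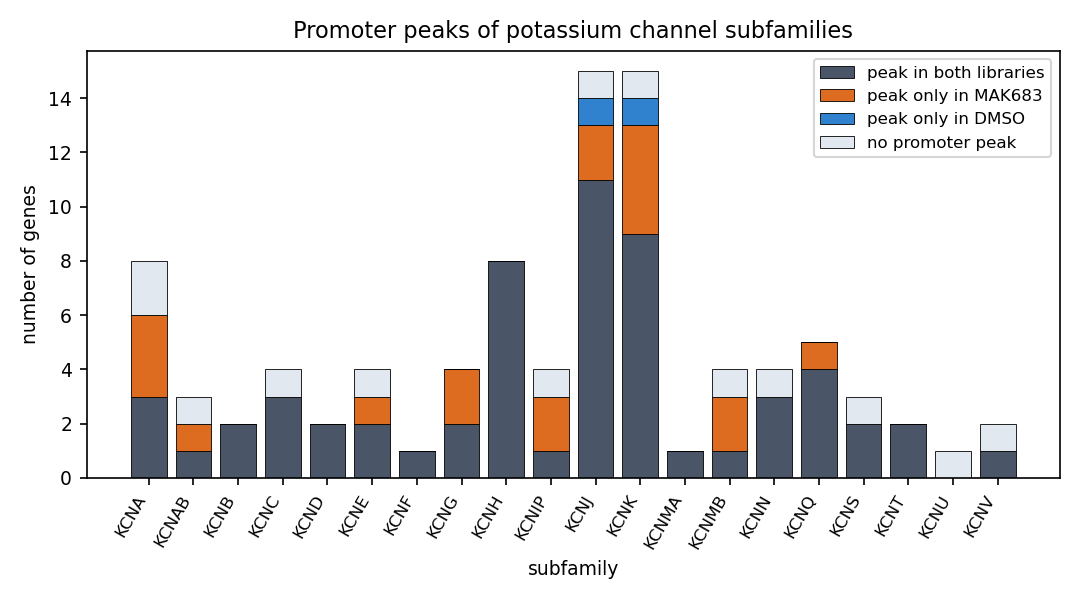
Number of potassium channel genes (y axis) in each of the 20 subfamilies (x axis), stacked by whether a promoter peak was called in both libraries, in MAK683 alone, in DMSO alone or in neither. KCNH has peaks in both libraries at all 8 genes, KCNK and KCNA hold the most genes with a MAK683 peak alone at 4 and 3, and the genes with a DMSO peak alone are in KCNJ and KCNK.

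Of the 79 genes with a promoter peak in either library, 51 were higher in MAK683, or 64.6%, whereas 21.4% of all coding genes with a peak were. The other 28 were lower, and the background for lower was 78.5%. The median log2 ratio of the 79 genes was 0.28 (95% interval 0.08 to 0.45). At the 59 genes with peaks in both libraries it was 0.13, and 33 of them were higher, against a background of 13.4% and a median of -0.46 over all genes. At least 2-fold higher were 6 genes, KCNMB2, KCNMB1, KCNJ3, KCNIP1, KCND3 and KCNH5, against 3.37% of all genes. The first 4 had no DMSO peak, so their ratios rest on the floor. At least 2-fold lower were 0 genes, against 5.73%. KCNH5 lay just inside this limit at 1.01, and KCNH8 just outside it at 0.999, just under 2-fold.

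The potassium channel genes sat high in the order of all genes rather than at its top. By log2 ratio 65 of the 79 stood above the median of all genes, 27 above the 90th percentile and 0 below the 10th percentile. Relative to the all-gene median, 24 were at least 2-fold higher, against 9.71% of all genes. The 65 include all 18 genes with a MAK683 peak alone, whose ratios rest on the floor. Such genes are also among the 27 and the 24, and KCNMB2, KCNMB1, KCNJ3 and KCNIP1 held the highest ranks. At the 59 genes with both peaks, where no floor enters, the median was 0.13, against -0.46 over all genes. Per gene the tags were few. The interval of the log2 ratio lay above 0 at 0 of the 59 genes (background 0.952%) and below 0 at 2, which include KCNIP2 (background 20.9%). Summed over the 59 genes, the height in MAK683 was 1.01 times that in DMSO (95% interval 0.931 to 1.10), against 0.731 times over all genes with both peaks (0.728 to 0.734).

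**Figure D2:**
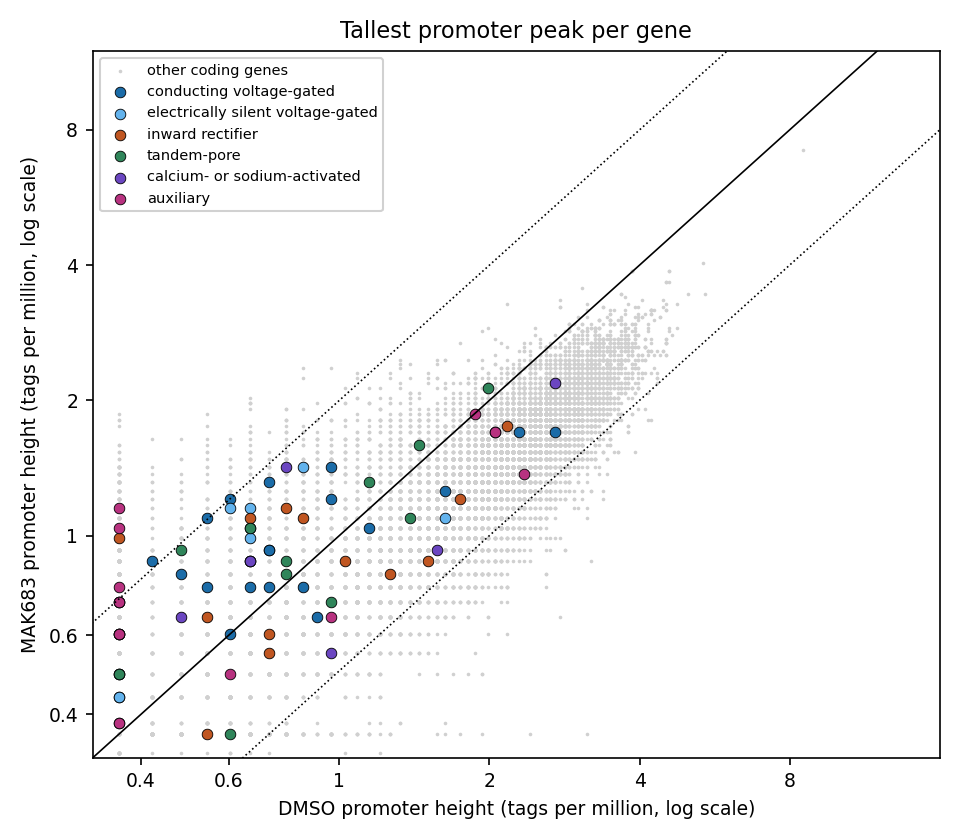
Promoter height in DMSO (x axis) against MAK683 (y axis), both in RPM on log scales, for the 79 potassium channel genes with a peak, coloured by class, over the other coding genes in grey. The solid line marks equal height and the dotted lines a 2-fold difference, and a missing peak is drawn at the floor of 0.361 RPM. Low DMSO promoters lie mostly above the solid line, and those above 1 RPM mostly below it with the grey cloud.

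The ratio followed the DMSO height. Of the 20 potassium channel genes at 1 RPM or more in DMSO, 3 were higher and 17 lower in MAK683, with a median log2 ratio of -0.32. All coding genes of that height had a median of -0.52, and 6.15% of them were higher. Of the 41 genes with a DMSO peak under 1 RPM, 73.2% were higher, with a median of 0.40. Among all coding genes with such low peaks, 46.7% were higher and the median was -0.03. The 18 genes with a MAK683 peak alone had a median of 0.74, the same as all genes without a DMSO peak, but there the floor largely fixes the sign. The channel genes with a DMSO peak were thus above coding genes at large in both height ranges. In the upper range their DMSO heights were also lower, with a median of 1.69 RPM against 2.11, so the genes compared there were not of equal height. Because DMSO height both sorts the genes and enters the ratio, counting error by itself gives part of such a trend. Sorted by the mean height of both libraries, 75.0% of the channel genes from 0.75 to 1 RPM were higher, against 38.0% of all genes, and 42.9% of those from 1 to 1.5 RPM, against 17.8%.

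**Figure D3:**
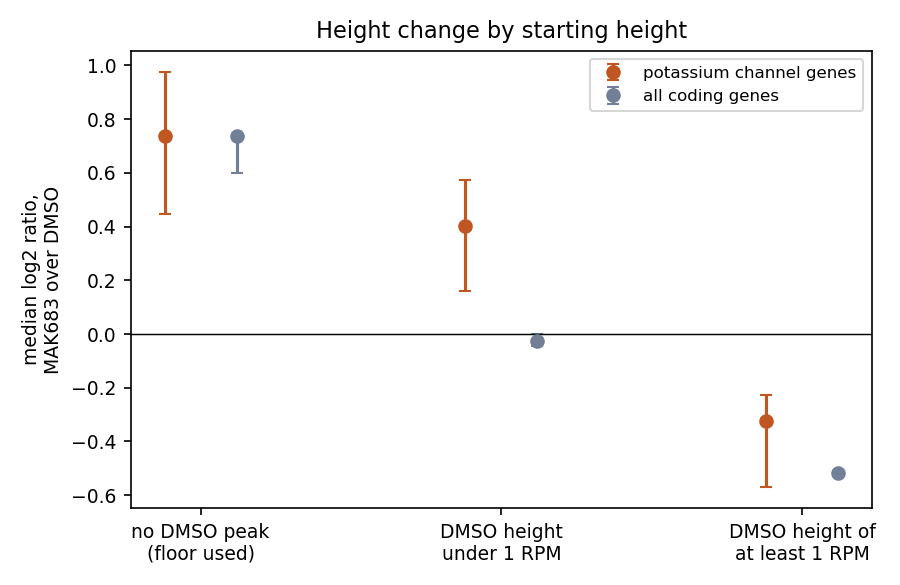
Median log2 ratio of promoter height (y axis) for genes with no DMSO promoter peak, with one under 1 RPM and with one of at least 1 RPM (x axis), for potassium channel genes and for all protein-coding genes, with bars for the 95% order-statistic intervals of the medians. Both sets were at 0.74 with no DMSO peak, and the channel genes were at 0.40 below 1 RPM and at -0.32 from 1 RPM, and all coding genes at -0.03 and -0.52.

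Among the 29 conducting voltage-gated genes (subfamilies KCNA, KCNB, KCNC, KCND, KCNH and KCNQ), 22 had a peak in DMSO and 26 in MAK683. Of the 26 with a peak, 18 were higher and 8 lower, with a median log2 ratio of 0.36 (-0.00 to 0.56). With peaks in both libraries, 14 were higher and 8 lower. KCND3, a pore of the transient outward current of heart and neurons, had 0.422 RPM in DMSO (7 tags, 95% interval 0.170 to 0.869) and 0.876 in MAK683 (16 tags, 0.501 to 1.42). Its log2 ratio was 1.05 (-0.23 to 2.34). KCNH5 stood at 0.542 RPM in DMSO and 1.09 in MAK683, with 9 and 20 tags and a log2 ratio of 1.01 (-0.12 to 2.15). KCNH8, of the ELK group of the same subfamily, went from 10 to 22 tags, or 0.602 and 1.20 RPM. In each of these genes the intervals of the 2 heights overlapped.

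KCNB2, a delayed rectifier, stood at 0.723 RPM in DMSO and 1.31 in MAK683 (0.86, -0.14 to 1.86). KCNH6, of the ERG group, stood at 0.482 and 0.821 RPM (0.77, -0.47 to 2.01). KCNA2, an axonal channel, stood at 0.723 and 0.931 RPM (0.36, -0.70 to 1.43), and KCNA4 had the same heights, so they tied as the tallest of their subfamily in DMSO. These genes all began under 1 RPM, where the class was mostly higher in MAK683. KCNA1, KCNA3, KCNA6 and KCNQ1 had a peak in MAK683 alone, of which KCNA1, another axonal channel, was the tallest at 0.602 RPM (11 tags).

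All 5 conducting voltage-gated genes at 1 RPM or more in DMSO were lower in MAK683. KCNH2, which carries a repolarizing current of the heart, had 2.29 RPM in DMSO and 1.70 in MAK683 (-0.43, -1.12 to 0.25). KCNH1, the EAG channel often expressed in tumors, had 2.05 and 1.70 RPM (-0.27, -0.97 to 0.43). The intervals of both ratios spanned 0.

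The electrically silent voltage-gated genes (KCNF, KCNG, KCNS and KCNV) encode subunits that carry no current alone and change KCNB channels. With a peak at 8 of 10 genes, 7 were higher, and the median log2 ratio of 0.65 (-0.57 to 0.93) was the highest of the 6 classes. Where both libraries had a peak, 5 were higher and 1 lower. KCNV1 had 0.602 RPM in DMSO (10 tags) and 1.15 in MAK683 (21 tags), a log2 ratio of 0.93 (-0.15 to 2.02). KCNF1 had 0.663 and 1.15 RPM (0.79, -0.26 to 1.85), and KCNS3 had 0.843 and 1.42 RPM (0.76, -0.18 to 1.69). KCNG1 had a MAK683 peak alone, at 0.602 RPM. The exception was KCNG3, the tallest of the class in DMSO, with 1.63 RPM in DMSO and 1.09 in MAK683 (-0.57, -1.41 to 0.26). KCNB2, whose pore such subunits join, was higher as well, at the log2 ratio of 0.86 given above.

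The inward rectifiers (KCNJ) were the only class with a median log2 ratio below 0, at -0.24 (-0.58 to 0.72), with 6 of 14 genes higher. Of those with both peaks, 4 were higher and 7 lower. With a 1 kb window in place of 3 kb the median was 0.45, so the sign of this class rests on peaks away from the TSS. All 5 of its genes at 1 RPM or more in DMSO were lower. KCNJ2, the main inward rectifier of heart and skeletal muscle, had 2.17 RPM in DMSO (36 tags, 1.52 to 3.00) and 1.75 in MAK683 (32 tags, 1.20 to 2.47), a log2 ratio of -0.31. KCNJ11, the pore of the ATP-sensitive channel, had 1.75 and 1.20 RPM (-0.54, -1.34 to 0.26). KCNJ4 had 1.51 and 0.876 RPM (-0.78, -1.69 to 0.12), and KCNJ16, whose upstream stretch is shown above, had 1.27 and 0.821 RPM (-0.62, -1.58 to 0.33). The KCNJ4 summits lay at 1035 bp in DMSO and 2547 bp in MAK683, in peaks that did not overlap, so different places are compared there. KCNJ12 has a near-identical copy in the genome, so its count is uncertain. KCNJ13, an epithelial inward rectifier, had 0.542 RPM in DMSO and no MAK683 peak.

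The class also held genes at the other end. KCNJ3, a subunit of the G protein-gated channel that slows the heart, had no DMSO peak and 0.985 RPM in MAK683 (18 tags, 0.584 to 1.56), which against the floor is a log2 ratio of 1.45. KCNJ10 had no DMSO peak and 0.712 RPM in MAK683 (13 tags, 0.379 to 1.22). KCNJ6, KCNJ9 and KCNJ5, the other genes of the G protein-gated group, were named after their values were seen. KCNJ6 stood at 0.663 RPM in DMSO and 1.09 in MAK683 (0.72, -0.34 to 1.79). KCNJ9 stood at 0.783 and 1.15 RPM (0.55, -0.44 to 1.55), with its summits at -2769 and -2729 bp, near the edge of the window. KCNJ5 stood at 0.843 and 1.09 RPM (0.38, -0.61 to 1.36). All 4 genes of this group were higher in MAK683, with log2 ratios from 0.38 at KCNJ5 to 1.45 at KCNJ3. The intervals of KCNJ6, KCNJ9 and KCNJ5 spanned 0, and the KCNJ3 value rests on the floor. All 4 began under 1 RPM or without a DMSO peak, where most channel genes with a peak were higher.

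Among the tandem-pore genes (KCNK), 11 of 14 with a peak were higher, with a median log2 ratio of 0.15 (-0.34 to 0.74). Among those with both peaks, 7 were higher and 2 lower. KCNK2 had 0.482 RPM in DMSO (8 tags) and 0.931 in MAK683 (17 tags), a log2 ratio of 0.95 (-0.26 to 2.16). KCNK3, an acid-sensitive leak channel, and KCNK17, an alkaline-activated one, had MAK683 peaks alone, at 0.712 and 0.602 RPM. KCNK13 had the tallest promoter of the class in both libraries, at 1.99 RPM in DMSO (33 tags) and 2.14 in MAK683 (39 tags), a log2 ratio of 0.10 (-0.57 to 0.77). It was 1 of 3 tandem-pore genes, with KCNK9 and KCNK12, that stood at 1 RPM or more in DMSO and were higher in MAK683. No gene of another class did so, but these differences were small. The log2 ratio was 0.20 (-0.67 to 1.07) at KCNK9 and 0.13 (-0.65 to 0.92) at KCNK12. The KCNK9 summits lay at -2828 bp in DMSO and 979 bp in MAK683, so different places are compared there. KCNK4, a stretch-sensitive leak channel, had 0.602 RPM in DMSO and no MAK683 peak. Its DMSO summit lay at -2729 bp from the TSS, near the edge of the window.

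Of the 8 genes of the calcium- or sodium-activated class (KCNMA, KCNN, KCNT and KCNU), 3 were higher and 3 lower, and the median log2 ratio was 0.05 (-0.82 to 0.86). KCNU1, which had no promoter peak, was placed here as a member of the slo channel family. The sign of this median changed under 5 of the alternatives listed in the closing section. KCNN2 had 0.783 RPM in DMSO and 1.42 in MAK683 (0.86, -0.10 to 1.82). The other small-conductance genes stood the other way, KCNN1 with 0.964 and 0.547 RPM (-0.82, -1.96 to 0.32) and KCNN3 with 1.57 and 0.931 RPM (-0.75, -1.63 to 0.13). KCNT2, a sodium-activated channel, had 2.71 RPM in DMSO (45 tags, 1.98 to 3.63), and at 2.19 RPM it was the tallest channel promoter in MAK683 (-0.31, -0.92 to 0.31).

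The 15 auxiliary genes (KCNAB, KCNE, KCNIP and KCNMB) had the fewest DMSO peaks, at 5 genes, and the most peaks in MAK683 alone, at 6. Their median log2 ratio was 0.08 (-0.55 to 1.52), and it was below 0 with stricter peaks or with all annotated TSSs. KCNMB2, a subunit that inactivates the large-conductance calcium-activated channel, had no DMSO peak and 1.15 RPM in MAK683 (21 tags, 0.712 to 1.76). Its summit was 56 bp downstream of the TSS. Against the floor this is a log2 ratio of 1.67, the highest of the channel genes. KCNMB1, the smooth muscle subunit of the same channel, had no DMSO peak and 1.04 RPM in MAK683 (19 tags), a peak that is also within 3 kb of the start of the non-coding gene KCNIP1-OT1. KCNIP1, which binds the KCND pores, had 0.766 RPM in MAK683 alone (14 tags), KCNE4 had 0.712 and KCNIP4 had 0.602.

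The auxiliary genes with a DMSO peak did not follow these. KCNIP2, another KCND partner, had 2.35 RPM in DMSO (39 tags, 1.67 to 3.21) and 1.37 in MAK683 (25 tags, 0.886 to 2.02), a log2 ratio of -0.78 with an interval below 0 (-1.50 to -0.06). Its summits lay 2913 bp and 2918 bp downstream of the TSS, so the value rests on a peak near the edge of the window. KCNE2, a partner of cardiac and epithelial channels, had 0.964 and 0.657 RPM (-0.55, -1.63 to 0.53). KCNMB4, the neuronal subunit of the large-conductance channel, had 1.87 RPM in DMSO (31 tags) and 1.86 in MAK683 (34 tags), a log2 ratio of -0.00 (-0.71 to 0.70).

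**Figure D4:**
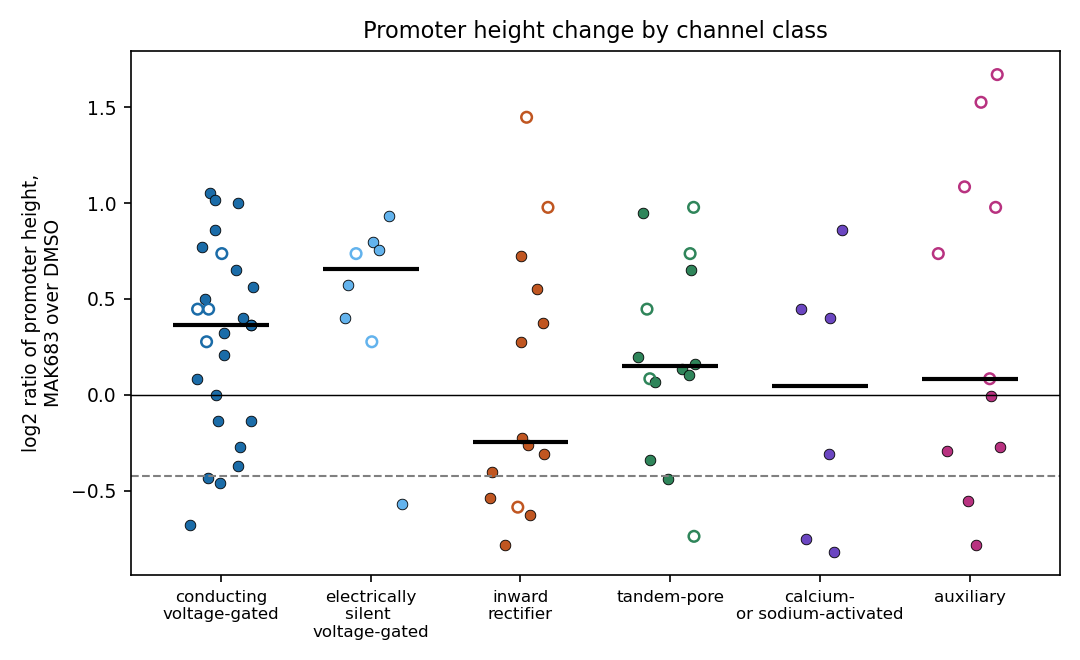
Log2 ratio of promoter height, MAK683 over DMSO (y axis), of each potassium channel gene with a peak, by class (x axis), with open circles for genes with a peak in 1 library alone, black bars for class medians and a dashed line at the all-gene median of -0.42. Each class median lies above the dashed line, from -0.24 for inward rectifiers to 0.65 for electrically silent genes, and the genes of every class overlap those of the others.

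The ratios of single genes overlapped between classes. The intervals of the 6 class medians all overlapped. Summed over genes with both peaks, the height in MAK683 was 1.32 times that in DMSO for the silent genes (0.99962 to 1.74). It was 1.09 times for the conducting voltage-gated (0.944 to 1.25) and tandem-pore genes (0.884 to 1.34), and 0.924 times for the activated channels (0.717 to 1.19). It was 0.891 times for the inward rectifiers (0.731 to 1.08) and 0.776 times for the auxiliary genes (0.602 to 0.99959). The intervals of the silent and auxiliary sums thus just failed to overlap, and they cover counting error only. By subfamily, medians ran from -0.75 for KCNN to 1.52 for KCNMB, each over 3 genes with a peak. The KCNMB median is the ratio of KCNMB1, which rests on the floor. KCNH was the largest subfamily in which every gene had a peak in both libraries, at 8 of 8, with 5 higher and a median of 0.29. In KCNA 5 of 6 genes with a peak were higher, but KCNA1, KCNA3 and KCNA6 had no DMSO peak, so the floor largely fixes their sign. Of the KCNA genes with both peaks, 2 were higher and 1 lower.

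The 18 peaks found in MAK683 alone were low, with 7 to 21 tags and a median of 11. At 7 of the 18 genes the lower bound of the height interval lay above the floor, and at 9 the summit lay within 1 kb of the TSS. At the 59 genes with both peaks, the tallest peaks of the libraries overlapped at 49, and their summits lay within 500 bp of each other at 40. Most ratios thus compare the same element, and the others compare neighbouring ones. Only 3 channel genes, KCNT1, KCNQ1 and KCNAB3, had the TSS of another protein-coding gene in the window, so the peak there may belong to that gene.

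Peaks covered more of the potassium channel promoters in MAK683, as they did in sodium and calcium channel genes (values below). In DMSO they covered a mean of 1052 bp of the window that reaches 3 kb to each side of the TSS, and in MAK683 1814 bp, a ratio of 1.72. Over all coding genes the mean went from 1667 to 1529 bp, a ratio of 0.917. The window was covered more widely in MAK683 at 58 of the 92 genes (63.04%), against a background of 26.1%, and less widely at 21. KCND3 went from 247 to 3910 bp, KCNE4 from 0 to 2577 bp and KCNS3 from 2086 to 4805 bp. KCNJ4, lower in height, went from 4131 to 3232 bp. Genes picked for their values include KCNJ5, with 688 and 4785 bp, and KCNK10, with 1204 and 5292 bp. At genes of 1 RPM or more in DMSO the ratio of coverage was 1.02, against 0.828 for all genes of that height, and at genes with a lower DMSO peak it was 2.30, against 1.40. KCNH1 was lower in height in MAK683 and yet more widely covered, with 2673 and 3666 bp, as was KCNH2 with 5798 and 6001 bp.

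**Figure D5:**
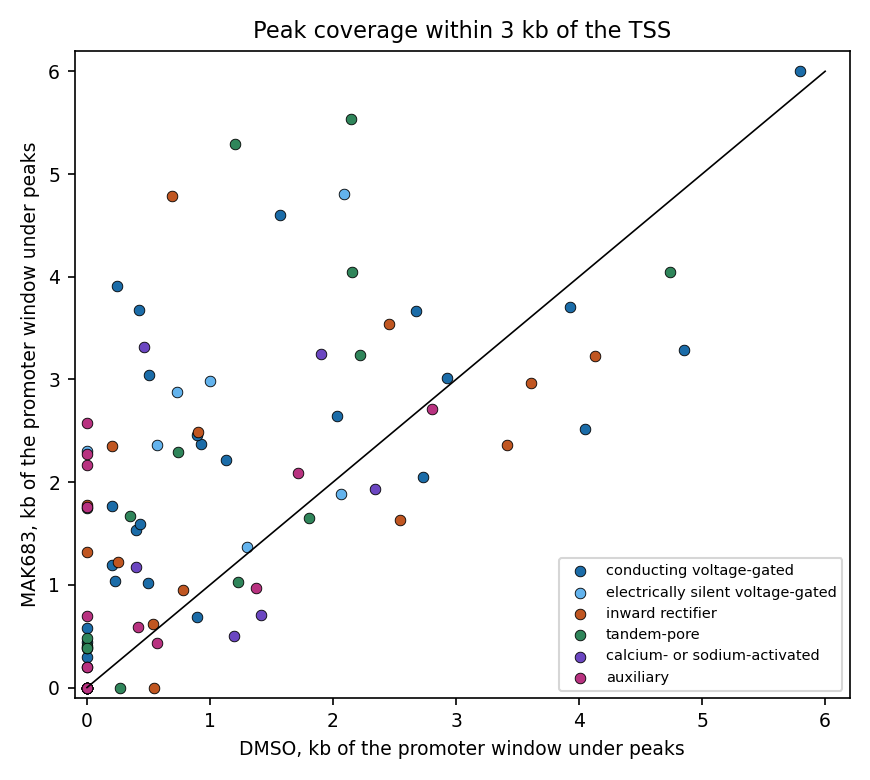
Kilobases of the promoter window under peaks in DMSO (x axis) against MAK683 (y axis) for the 92 potassium channel genes, with a line at equal coverage. Of the genes, 58 lie above the line and 21 below it, and the mean is 1052 bp in DMSO and 1814 bp in MAK683.

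Beyond 3 kb from the TSS, the bodies of the channel genes held 301 peaks in DMSO and 844 in MAK683, a ratio of 2.80 (2.46 to 3.20). With any 1 of the 92 genes left out, the ratio lay between 2.54 and 3.34. Over all coding genes the counts were 61749 and 74043, a ratio of 1.20 (1.19 to 1.21). Per Mb of gene body this was 23.2 and 65.1 peaks for the channel genes and 48.8 and 58.5 for all genes. The channel gene bodies thus held fewer peaks per Mb than coding genes at large in DMSO and slightly more in MAK683. The genes with many added peaks were long ones, named here after their values were seen: KCNMA1, the large-conductance pore, went from 5 to 92 peaks, KCNIP1 from 9 to 69, KCNQ3 from 4 to 40, KCNK9 from 1 to 35, KCNMB2 from 2 to 35 and KCNH1 from 0 to 32. KCNAB1 had fewer, with 63 peaks in DMSO and 49 in MAK683. The body of KCNIP1 spans KCNMB1, so peaks there are not independent.

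The ratio of gene-body peaks was 5.05 (3.98 to 6.398) at channel genes with a DMSO promoter peak under 1 RPM, against 2.56 (2.48 to 2.64) at all genes of that height. From 1 RPM it was 1.84 (1.41 to 2.39), against 0.851 (0.840 to 0.862), but this rests on KCNH1 and KCNK9, without which it was 1.06 (0.786 to 1.43). At channel genes with no DMSO promoter peak it was 2.04 (1.66 to 2.51), against 3.23 (3.12 to 3.33) for all such genes. That value also rests on single genes, with 3.17 (2.43 to 4.14) without KCNAB1 and 1.64 (1.31 to 2.05) without KCNIP1. The 15 tandem-pore genes had 13 peaks in DMSO and 103 in MAK683, a ratio of 7.92, and without KCNK9 5.67 (3.07 to 10.5). The values without single genes were chosen after seeing the data, and peaks clustered in a gene are not independent, as the intervals assume.

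In the 300 bases from 250 before to 50 after the TSS, channel promoters had a median GC content of 67.5%, against 63.7% for all coding genes. With CpG-rich meaning a CpG count of at least 0.6 of that expected from base composition, 60.9% of them were CpG-rich, against 67.6%. Searched on both strands, GGGCGG was in 69.6% of channel promoters and 61.3% of all, TATAAA in 5.43% and 9.82%, and TGANTCA, the letters of an AP-1 site, in 2.17% and 5.36%. The core motif of REST, a repressor of neuronal genes, was in 0 channel promoters and 12 of all. CpG-rich channel genes with a peak were higher at 39 of 54, with a median log2 ratio of 0.39, while all CpG-rich genes had -0.46. CpG-poor channel genes had a median of -0.26 (-0.44 to 0.50), an interval that holds the -0.14 of all CpG-poor genes, and 48.0% of them were higher, against 43.6%. The channel genes thus stood above coding genes of the same CpG class where the promoter was CpG-rich. No such difference could be made out where it was CpG-poor. The genes compared were not of equal DMSO height. The median was 0.783 RPM in CpG-rich channel genes against 2.05 in all CpG-rich genes, and 0.783 against 1.14 where CpG-poor. Whether DMSO height accounts for this contrast was not tested. Conducting voltage-gated genes were 86.2% CpG-rich and auxiliary genes 26.7%.

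Other ion channel families were measured in the same way. The 14 voltage-gated sodium channel genes had a median log2 ratio of 0.15 (-0.50 to 0.74), with 8 of 14 higher, an interval that holds the potassium channel median of 0.28. With a minimum −log10 q-value of 10 for peaks the order turned, to 0.074 for sodium and -0.0024 for potassium channel genes. The 25 calcium channel genes had a median of -0.10, with 8 of 22 higher, the 4 HCN pacemaker channel genes -0.14 and the 7 chloride channel genes of the CLCN family -0.34. Gene-body peaks in MAK683 over DMSO had a ratio of 3.96 (2.62 to 6.0003) in sodium channel genes and 3.00 (2.45 to 3.68) in calcium channel genes, whose intervals overlap that of the potassium channel genes, and of 0.900 (0.535 to 1.51) in chloride channel genes. More gene-body peaks in MAK683 were thus also found in sodium and calcium channel genes. The ratio of promoter window coverage was 1.68 in sodium, 1.34 in calcium, 1.24 in HCN and 0.857 in chloride channel genes. Coverage was wider at 10 of 14 sodium, 15 of 25 calcium, 2 of 4 HCN and 2 of 7 chloride channel genes. MAK683 alone had a peak at 4 of 14 sodium, 3 of 25 calcium, 1 of 4 HCN and 1 of 7 chloride channel genes. Wider coverage was thus not particular to potassium channel genes.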

How the data were processed

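The 2 ATAC-seq libraries of G401 cells, 1 given DMSO and 1 given MAK683, were grouped by their labels. The authors trimmed reads with Trim-galore, aligned them to hg19 with Bowtie2 and called narrow peaks on each library alone. Per the file headers this was MACS 2.1.1.20160309 with a q-value cutoff of 0.05, a shift of -100 bp, an extension of 200 bp, no control and 1 tag kept per position. The pileup deposited for each peak is a signal in whole, unscaled tags. The fold enrichment that the authors deposited is a ratio to a genome-wide background. The −log10 q-value and −log10 p-value, also deposited, depend on depth. Alignments were read as single ends, so tags are reads. Without molecular identifiers, reads are not independent molecules. One background level served the whole genome.

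Pileups were divided by the tags after filtering and multiplied by 1000000. TSSs were those of the Ensembl canonical transcripts in GENCODE 44 lifted to GRCh37, and all peak ends lay within GRCh37 chromosomes. Intervals of heights are exact Clopper-Pearson, those of ratios of heights and of sums or numbers of peaks use Poisson error on the log scale, and those of medians are order-statistic intervals. Genes named were the 10 highest and 10 lowest ratios with both peaks, all with a peak in DMSO alone, the 10 tallest in MAK683 alone with ties, the 5 tallest per library, and the tallest in DMSO of each subfamily with at least 4 measured genes. Others are marked as chosen after their values were seen, and some genes that meet the rule are not reported here. The genes, classes and lists were chosen with earlier results of these data known. On simulated data with 11719 genes and 200 changed 2-fold, 95.6% of the ratio intervals held the true value. Those counts were drawn with the Poisson error that the intervals assume, at 1 fixed peak per gene. The simulation thus checks the calculation and not how well the intervals describe real libraries. Alternatives were stricter peaks, equal peak numbers, other windows and TSSs, summits only, removal of shared windows, other scalings and another floor, and, added after seeing the data, gene-body counts without single genes. Python 3.11.15, numpy 2.4.6, pandas 2.3.3, scipy 1.17.1 and matplotlib 3.10.9 were used.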

Additional observations from a re-analysis of the deposited data

Results flagged for a closer look

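Promoters of non-coding genes at the channel loci were not part of the comparisons above. At 4 of them, none within 3 kb of the TSS of a potassium channel gene, a peak was called in MAK683 and none in DMSO, which is what set them apart. KCNJ5-AS1 had 1.48 RPM in MAK683. KCNIP1-AS1 had 0.712 RPM, KCND3-IT1 0.602 RPM and KCNH7-AS1 0.547 RPM. ATAC-seq carries no strand, so these peaks cannot be assigned to the non-coding gene rather than to the channel gene it lies in or beside.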

How the results depend on the processing

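Of 644 values recomputed under 11 alternatives, 587 stayed within set limits, 40 moved beyond them and 17 were counted as sign changes. The limit was the main interval where there was one, and a set distance for counts and floor-based ratios. Sign changes were counted only for medians and for genes at least 2-fold different. Smaller gene ratios that changed sign fell under the other labels. With a minimum −log10 q-value of 5, 4 genes had a peak in DMSO alone, 0 were at least 2-fold higher, and the medians were -0.092 (calcium- or sodium-activated) and -0.00028 (auxiliary). With a minimum of 10, 26 genes had a peak in DMSO, 45 in MAK683, 21 in both and 5 in DMSO alone, 24 were higher and 0 at least 2-fold higher. The median was then -0.0024 over either library and -0.31 over both, -0.093 for the activated and -0.049 for the auxiliary genes, and KCND3 was at -0.045. These minimums raise the floor, which by construction lowers the ratios of genes with a MAK683 peak alone and raises those with a DMSO peak alone. The floor does not enter the median over both libraries, which with the minimum of 10 was over 21 genes rather than 59. With a 1 kb window, 2 genes were at least 2-fold lower, and the medians were 0.45 (inward rectifiers) and -0.14 (activated). With all annotated TSSs the medians were -0.13 (activated) and -0.24 (auxiliary), and without shared windows and near-identical copies -0.31 (activated). Without depth scaling 14 genes were at least 2-fold higher and the calcium channel median was 0.034. With a floor of 0.5 RPM 3 were. Centred on the all-gene median, the medians were 0.70 (either library), 0.56 (both), 0.79 (conducting voltage-gated), 1.08 (silent), 0.18 (inward rectifiers), 0.32 (calcium), 0.28 (HCN) and 0.079 (chloride), and 24 genes were at least 2-fold higher. Other causes of these changes were not tested. Equal peak numbers, summits within 3 kb and fold enrichment changed no count or median of the channel genes beyond its limits. No paired analysis was possible because each group has 1 library. Depth limits single genes, since promoters of 7 to 45 tags leave intervals that mostly span 0, and the lack of replicates limits every difference.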

Other observations

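Of the potassium channel genes on chromosome X, KCND1, a pore of the transient outward current, had 1.69 RPM in DMSO (28 tags) and 1.20 in MAK683 (22 tags), a log2 ratio of -0.49 (-1.29 to 0.32), and KCNE5, an auxiliary subunit, had no promoter peak. Among non-coding genes, KCNQ1OT1, the imprinted antisense RNA inside KCNQ1, had 0.904 RPM in DMSO and 0.876 in MAK683 (-0.04, -1.06 to 0.97). KCNIP2-AS1 had the tallest promoter of the non-coding genes at these loci, at 2.83 RPM in DMSO (47 tags) and 2.63 in MAK683 (48 tags).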
